A study of Danio rerio with 2 samples.

Results

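Skeletal muscle cells were found among cells sorted for the endothelial reporter *kdrl*:mCherry from zebrafish embryos at 24 h post-fertilization (hpf). A cell was counted as muscle when it held at least 2 unique molecular identifiers (UMIs, 1 per captured transcript) of each of at least 3 of the genes *actc1b*, *mylpfa*, *myog*, *myod1* and *tnnc2*, and at most 2 UMIs summed over the endothelial genes *kdrl* and *cdh5*. The rule gave 190 of 25864 cells, of which 148 came from WT and 42 from aktΔ/Δ embryos.

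Each genotype was measured as 1 droplet library of 3′ transcripts, made from embryos that were dissociated with liberase and pooled before sorting. The aktΔ/Δ embryos were homozygous for CRISPR/Cas9 alleles, stated to bring premature stop codons, in all 4 Akt genes (*akt1* ya348, *akt2* ya349, *akt3a* ya350 and *akt3b* ya351), and their parents kept a wild-type copy of *akt2*. The WT embryos are labelled wild type. Both carried the *kdrl*:mCherry transgene, in which an endothelial promoter drives the reporter, and neither was treated. The labels call the sorted cells endothelial. With 1 library per genotype there is no replicate, so no test between genotypes was possible and no p-value is given: every difference is between 2 libraries, and intervals in parentheses are exact 95% intervals that cover counting error only.

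The skeletal muscle of the zebrafish trunk forms in the somites, where the transcription factors Myod1 and Myog start the muscle programme and the products of *actc1b* (actin), *mylpfa* (a fast myosin light chain) and *tnnc2* (a fast troponin) build the contractile sarcomere. Slow fibres arise first, stay mononucleate and use a slow myosin heavy chain encoded by *smyhc1*, whereas fast fibres form later by fusion of myoblasts and use fast myosin heavy chains such as those of the *myhz* genes. In mammals Akt carries the insulin-like growth factor signal that promotes muscle growth and restrains FoxO factors, which switch on atrophy genes such as the ubiquitin ligase gene *Trim63*.

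The libraries held 16400 WT cells with a median of 5930.5 UMIs and 9464 aktΔ/Δ cells with a median of 8247 UMIs. Of these, 16398 and 9462 cells had at least 200 detected genes. The WT muscle cells held 502 to 41714 UMIs with a median of 10720, and the aktΔ/Δ muscle cells 613 to 38600 UMIs with a median of 7938.5. In all they held 1770243 and 493557 UMIs, so that a count of 0 allowed a level of up to 1.69 CPM (UMIs of a gene per 1000000 UMIs of the cells summed) in WT and 6.08 CPM in aktΔ/Δ cells. The libraries shared 225 cell barcodes, of which 1 belonged to a WT muscle cell and none to an aktΔ/Δ muscle cell.

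Among the genes that chose the cells, actin led. *actc1b* (LL0000000222) was at 2 to 1857 UMIs per cell with a median of 125 in WT and 7 to 1937 UMIs per cell with a median of 91 in aktΔ/Δ cells, and all 190 cells held at least 2. *mylpfa* (LL0000019861) was at 0 to 1183 UMIs per cell with a median of 44 in WT and 0 to 1067 UMIs per cell with a median of 16.5 in aktΔ/Δ cells. *tnnc2* (LL0000030759) was at 0 to 148 UMIs per cell with a median of 11 and 0 to 187 UMIs per cell with a median of 7.50. The structural genes thus covered a wide range within each library, and the ranges of the libraries overlapped. The regulators were sparse: *myog* (LL0000019906) was at 0 to 34 UMIs per cell with a median of 1 in WT and 0 to 59 UMIs per cell with a median of 1 in aktΔ/Δ cells, and *myod1* (LL0000019903) at 0 to 15 UMIs per cell with a median of 1 and 0 to 19 UMIs per cell with a median of 1.

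**Figure D1:**
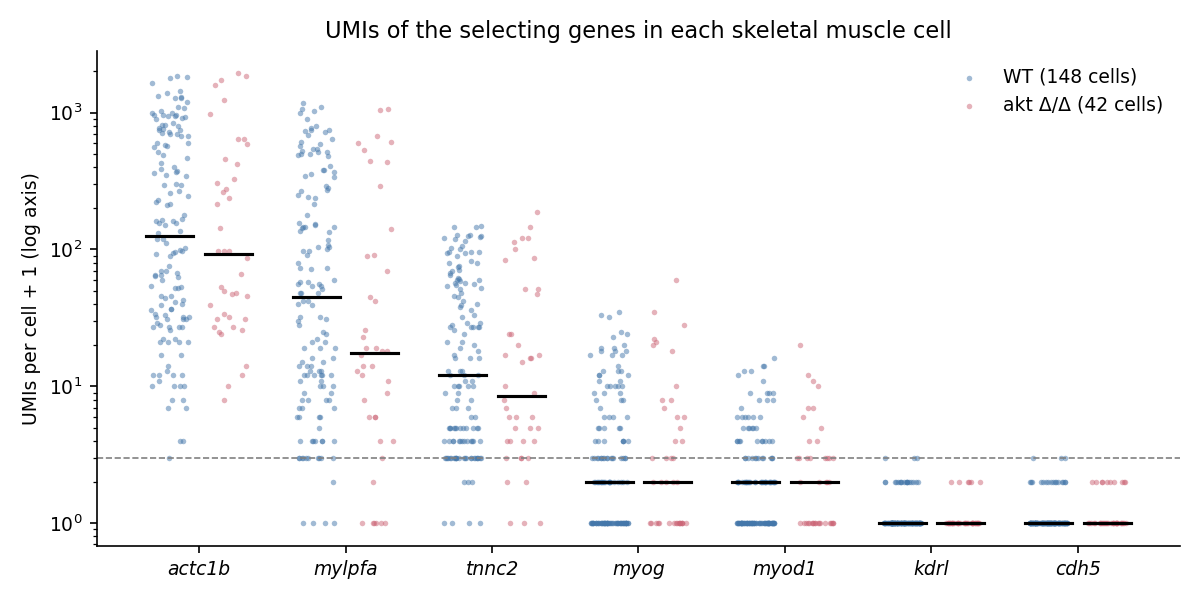
UMIs per cell plus 1 (log axis) of the 5 muscle genes and of *kdrl* and *cdh5* in each of the 148 WT and 42 aktΔ/Δ muscle cells (points, with horizontal lines at the medians and a dashed line at 2 UMIs). *actc1b* reached the 2 UMIs of the rule in every cell, while the medians of *myog* and *myod1* were 1 UMI in both libraries.

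The commonest combination was *actc1b* with *mylpfa* and *tnnc2* and without 2 UMIs of either regulator, in 68 WT (45.9%, 37.7 to 54.3) and 19 aktΔ/Δ cells (45.2%, 29.8 to 61.3). All 5 genes reached 2 UMIs in 34 WT (23.0%, 16.5 to 30.6) and 9 aktΔ/Δ cells (21.4%, 10.3 to 36.8). The third of the genes that a cell needed stood at exactly 2 UMIs, just inside the rule, in 31 WT and 6 aktΔ/Δ cells, and at exactly 1 UMI, just outside it, in 134 and 28 cells. No *kdrl* or *cdh5* UMI was seen in 110 WT and 28 aktΔ/Δ muscle cells, while a further 34 WT and 2 aktΔ/Δ cells met the muscle part of the rule and exceeded the endothelial limit.

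The name skeletal muscle was checked with markers that the rule did not use. The heart genes *myl7* (a cardiac myosin light chain) and *nppa* (a natriuretic peptide) were at 0 UMIs in all 190 cells, and *tnnt2a* (cardiac troponin T) had 1 UMI in WT and 0 in aktΔ/Δ cells. Of 15 cardiac genes found in the files, 7 had no UMI in either library and only *ttn.2* and *myl4*, which skeletal muscle also uses, reached 20. The smooth muscle genes *acta2* and *myh11a* had 2 and 1 UMIs in WT cells and 0 in aktΔ/Δ cells. Sarcomere, calcium-handling and synapse genes of skeletal muscle were present, so that the markers did not go against the name.

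Against all other cells of the same library, 460 of 4823 genes with at least 20 UMIs over the muscle cells (9.54%) were at least 10-fold higher in the muscle cells of both libraries. The same cells were chosen by muscle genes, so this is a description and supports nothing. The counts were 18 of 18 measured genes of the thick filament, titin and M-band, 9 of 9 genes of the neuromuscular synapse, 23 of 24 fast fibre genes, 13 of 14 slow fibre genes and 22 of 24 genes of excitation-contraction coupling. The counts were 2 of 8 for genes of myoblast fusion and 4 of 16 for the Mef2 family and its cofactors. The 20 genes with the highest ratios included *smyhc1*, the fast myosin genes *myhz1.1* and *myhz1.2*, the calcium buffer genes *pvalb1* and *pvalb4*, the calcium pump gene *atp2a1*, the myosin methyltransferase gene *smyd1a*, the nebulin gene *neb*, the caveolae coat genes *cavin4a* and *cavin4b*, and *chrna1*, a subunit of the acetylcholine receptor. *chrna1* was at 147 CPM (129.6 to 166, 260 UMIs) in WT and 129.7 CPM (99.9 to 166, 64 UMIs) in aktΔ/Δ cells, against 0.630 and 0.230 CPM in all other cells.

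Muscle transcripts were also seen in cells chosen by the endothelial genes. At least 1 UMI of *actc1b* was found in 38.8% of WT endothelial cells (3677 cells with a median of 7604 UMIs) and 21.9% of aktΔ/Δ endothelial cells (2951 cells with a median of 11258 UMIs). *myog*, in contrast, was found in 60.8% of WT and 59.5% of aktΔ/Δ muscle cells, against 0.979% and 0.339% of endothelial cells. For *tnnc2* the shares were 97.3% and 92.9% of muscle cells against 5.14% and 1.59% of endothelial cells. In level, *actc1b* stood at 254 CPM in WT and 23.0 CPM in aktΔ/Δ endothelial cells and at 30389 and 30082 CPM in the muscle cells. The endothelial cells can include some of the 34 WT and 2 aktΔ/Δ cells that met the muscle part of the rule and exceeded the endothelial limit. The part of those cells in the endothelial levels was not tested. In erythroid cells *actc1b* was at 42.1 CPM in WT and 10.9 CPM in aktΔ/Δ. The genes *actc1b*, *myog* and *tnnc2* chose the muscle cells, so the contrasts are a description.

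Muscle cells made up 0.902% of the WT library (0.763 to 1.06) and 0.444% of the aktΔ/Δ library (0.320 to 0.599). The WT share was 2.03 times the aktΔ/Δ share, and 1.77 to 2.44 times under the 12 alternatives that recomputed both shares. The cells had passed a gate on endothelial mCherry, so these are shares of sorted cells and not of the embryo, and differences in the sort, the dissociation or the embryos cannot be told apart. Beside this difference, muscle RNA was also more frequent in the WT endothelial cells, as given above for *actc1b*.

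Within each library the muscle cells spread from cells with few sarcomere transcripts to cells rich in them. Genes of the thin and thick filaments took 0.122% to 29.6% of a WT cell's UMIs with a median of 8.33%, and 0.137% to 44.8% of an aktΔ/Δ cell's UMIs with a median of 7.64%. The cells were ranked by this percentage within each library and divided into a lower, a middle and an upper tercile of 50, 49 and 49 WT and 14, 14 and 14 aktΔ/Δ cells. The filament genes themselves rank the cells and are no result of the ranking. For genes outside the ranking lists, levels were summed over each tercile and are given in the order lower, middle, upper. In that order, 2, 12 and 8 WT and 0, 3 and 3 aktΔ/Δ cells held at least 2 UMIs of *smyhc1*. The terciles thus also differed in their number of slow fibre cells. Their median totals were 7776.5, 10056 and 16360 UMIs in WT and 8968, 9592 and 5931 UMIs in aktΔ/Δ cells.

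Among genes outside the rule and the ranking lists, those of the fusion receptors *jam2a* and *jam3b* fell from tercile to tercile in both libraries. *jam2a* was at 463, 115 and 38.8 CPM in WT and 599, 90.03 and 16.6 CPM in aktΔ/Δ cells, and *jam3b* at 107, 49.2 and 30.4 CPM and 155, 118 and 11.1 CPM. For *jam3b* the intervals of the middle and upper WT terciles overlapped (32.9 to 70.6 and 19.1 to 46.1). Those of the lower and middle aktΔ/Δ terciles did too (96.1 to 237 and 73.1 to 181). *mymk*, which encodes the fusion protein myomaker, was at 78.6, 28.8 and 27.7 CPM in WT and 126, 67.5 and 5.54 CPM in aktΔ/Δ cells. *myf6*, a regulator of later myogenesis, had the opposite order at its low end, at 4.37, 54.3 and 44.3 CPM in WT and 0, 50.6 and 55.4 CPM in aktΔ/Δ cells. The cell cycle inhibitor gene *cdkn1ca*, which accompanies exit from the cycle in muscle, was at 139.8, 64.4 and 34.6 CPM in WT and 377, 174 and 83.1 CPM in aktΔ/Δ cells, and the replication clamp gene *pcna* at 89.5, 17.0 and 16.6 CPM in WT and 81.3, 28.1 and 11.1 CPM in aktΔ/Δ cells. The regulators *myog* and *myod1* are genes of the rule, and a cell with under 2 UMIs of both *mylpfa* and *tnnc2*, as 2 WT and 4 aktΔ/Δ cells were, could enter only through them. Their order is thus partly set by the choice of cells and is given as a description. *myog* was at 779.7, 281 and 154 CPM in WT and 1426, 298 and 72.0 CPM in aktΔ/Δ cells, and *myod1* at 236, 173 and 102 CPM in WT and 362, 219 and 49.9 CPM in aktΔ/Δ cells.

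The genes *ckma*, *atp2a1*, *ryr1b*, *pvalb2* and *smyd1a* rose along the order in both libraries. The creatine kinase gene *ckma* was at 1190.3, 4808 and 8418 CPM in WT and 473, 3179 and 9218 CPM in aktΔ/Δ cells. The calcium pump gene *atp2a1* was at 1413, 5242 and 10787 CPM in WT and 783, 4760.4 and 16143 CPM in aktΔ/Δ cells, and *ryr1b*, a calcium release channel gene, at 61.2, 137 and 246 CPM in WT and 36.9, 95.7 and 133 CPM in aktΔ/Δ cells. *pvalb2*, the gene of a calcium-buffering parvalbumin, showed a wide span, at 114, 1177 and 6717 CPM in WT and 199.5, 416 and 5113 CPM in aktΔ/Δ cells. *smyd1a* was at 4.37, 161 and 288 CPM in WT and 14.8, 67.5 and 415 CPM in aktΔ/Δ cells. Other muscle genes did not rise at each step in both libraries. *klhl41b*, a kelch-like gene of muscle, was at 446, 578 and 534 CPM in WT and 436, 625 and 382 CPM in aktΔ/Δ cells, and the fatty acid-binding protein gene *fabp3* at 1651, 2101 and 2065 CPM and 783, 2127 and 1241 CPM. The myosin folding gene *unc45b* was at 197, 288 and 217 CPM in WT and 192, 225 and 233 CPM in aktΔ/Δ cells. The synapse kinase gene *musk* was at 63.3, 76.3 and 62.3 CPM in WT and 51.7, 73.1 and 60.9 CPM in aktΔ/Δ cells, and *rps6*, a ribosomal protein gene, was at 6877, 5976 and 5557 CPM in WT and 6621, 6139 and 3822 CPM in aktΔ/Δ cells.

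Cells at the low end were few. Filament genes took under 1% of UMIs in 15 WT and 4 aktΔ/Δ cells, of which 6 and 3 held at least 2 UMIs of *myog*, and 3 and 0 held at least 5% of UMIs of erythroid genes. In the lower WT tercile the haemoglobin gene *hbae3* reached 8138 CPM, against 878 and 669.9 CPM in the others, and 406, 579.6 and 382 CPM in aktΔ/Δ cells. In that WT tercile 1 cell held 2254 of the 3726 *hbae3* UMIs, and without it the level was 3453 CPM. The part of that erythroid RNA in the levels of the lower WT tercile was not tested.

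**Figure D2:**
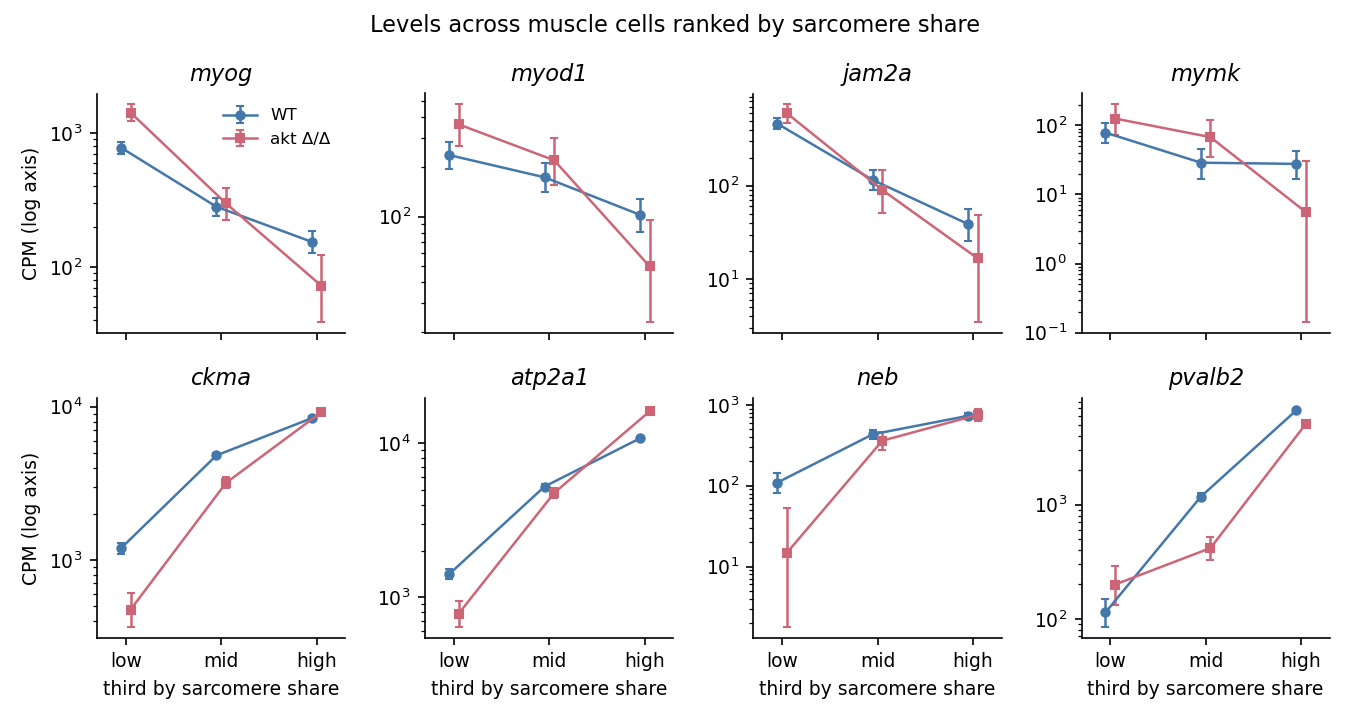
Level in CPM (log axes, with exact 95% Poisson intervals as bars) of 8 genes in the lower, middle and upper tercile of muscle cells ranked by the share of sarcomere UMIs, in WT (circles) and aktΔ/Δ cells (squares). *jam2a* fell along the order in both libraries, while *ckma*, *atp2a1* and *pvalb2* rose. *myog* and *myod1* are genes of the rule, so their fall is partly set by the choice of cells, and *neb* is itself a filament gene of the ranking.

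Most slow and fast fibre cells could be told apart by *smyhc1*, itself a gene of the slow list. At least 2 UMIs of it were held by 22 of 148 WT cells (14.9%, 9.56 to 21.6) and 6 of 42 aktΔ/Δ cells (14.3%, 5.43 to 28.5), with 3 to 222 UMIs each in WT and 14 to 337 in aktΔ/Δ cells. Of the remaining cells, 0 of 126 in WT and 2 of 36 in aktΔ/Δ held 1 UMI, whereas 1.09% and 0.576% of endothelial cells held any. The *smyhc1* cells had a median of 16245 UMIs in WT and 22105.5 in aktΔ/Δ, against 7976 and 5553 in the remaining muscle cells without a *smyhc1* UMI. Counted as a percentage of UMIs of the slow and fast lists together, slow genes took 56.6% to 83.0% in the WT and 59.5% to 80.0% in the aktΔ/Δ *smyhc1* cells. They took a median of 10.6% in WT and 12.6% in aktΔ/Δ cells without a *smyhc1* UMI. Among cells below 2 UMIs of *smyhc1*, 3 in WT and 4 in aktΔ/Δ still had more slow than fast UMIs. With the *smyhc1* cells, 25 WT (16.9%, 11.2 to 23.9) and 10 aktΔ/Δ muscle cells (23.8%, 12.1 to 39.5) did.

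**Figure D3:**
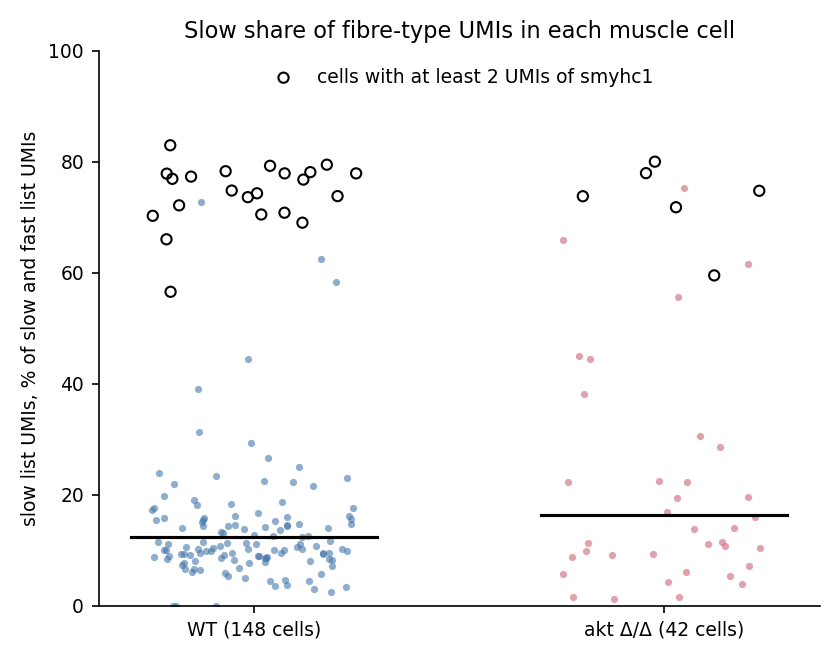
UMIs of the slow list as a percentage of UMIs of the slow and fast lists in each muscle cell, by library (points, with horizontal lines at the medians of 12.4% and 16.4%). Open circles mark cells with at least 2 UMIs of *smyhc1*, which lie at 56.6% or above, apart from most of the remaining cells.

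The *smyhc1* cells carried their own set of sarcomere genes. *myl10*, a slow myosin light chain gene, was at 45946 (45148 to 46755) CPM in WT *smyhc1* cells and 73.5 (60.4 to 88.6) CPM in the remaining WT cells, and at 54283 and 1004 CPM in the aktΔ/Δ library. The slow troponin C gene *tnnc1b* was at 6281 and 24.7 CPM in WT and 7965 and 81.2 CPM in aktΔ/Δ cells. The tropomyosin gene *tpm2* was at 10922 and 27.4 CPM in WT and 11735 and 230.1 CPM in aktΔ/Δ cells. *myl13* (53019 against 40.8 CPM in WT), *tpm3* (7079.9 against 70.9 CPM), *tnnt2d* (780.2 against 4.01 CPM) and *myl4* (572 against 3.34 CPM) followed the same order and are genes of light chains, tropomyosin and troponin. The slow fibre regulator *prox1a* had 18 UMIs in the 22 WT *smyhc1* cells and 3 in the remaining 126, and 14 and 0 UMIs in aktΔ/Δ cells. *prdm1a*, the switch gene of the slow lineage, had only 11 and 6 UMIs in WT and 1 and 1 in aktΔ/Δ cells. *pvalb4*, which stood in the fast list, was found here with the slow genes, with 631 of its 647 WT and 431 of its 432 aktΔ/Δ UMIs in *smyhc1* cells.

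Fast myosin heavy chains were not detected in the *smyhc1* cells. *myhz1.1*, *myhz1.2*, *myhz1.3* and *myhz2* each had 0 UMIs among the 274299 UMIs of the WT and the 124163 UMIs of the aktΔ/Δ *smyhc1* cells, which allows up to 10.9 and 24.2 CPM. In the remaining cells *myhz1.3* was at 3437 CPM in WT and 2201 CPM in aktΔ/Δ. The fast light chain gene *mylpfa* was at 875 against 17937 CPM in WT and 660.4 against 17082 CPM in aktΔ/Δ cells. It is a gene of the rule, and 21 of 22 WT and 6 of 6 aktΔ/Δ *smyhc1* cells held at least 2 UMIs of it. The fast troponin I gene *tnni2a.4* had 0 UMIs in them, while *tnni2b.1* was at 9927 against 5730.2 CPM in WT and 9101 against 4548 CPM in aktΔ/Δ cells. *tnnc2*, also a gene of the rule, was held at 2 UMIs or more by all 22 and 6 *smyhc1* cells, and was at 3419.6 against 2544 CPM in WT and 4083 against 2195 CPM in aktΔ/Δ cells. The pump gene *atp2a1* was at 6467 and 6524 CPM in WT. The *myhz1* genes, the *tnni2* genes, the skeletal and cardiac actin genes and the pair *mylpfa* and *mylpfb* are related copies. How similar they are, and how many reads fit several of them, was not measured, so their single levels are uncertain.

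Of the fusion genes, *mymk* had 0 UMIs in the *smyhc1* cells of both libraries and 73 and 30 UMIs in the remaining cells, at 48.8 CPM in WT and 81.2 CPM in aktΔ/Δ. *jam2a* was at 21.9 against 202 CPM in WT and 8.05 against 268 CPM in aktΔ/Δ cells. *myf6*, in contrast, was higher in *smyhc1* cells, at 117 against 22.7 CPM and 88.6 against 21.7 CPM. *chrna1* was at 295 against 119.7 CPM in WT and 266 against 83.9 CPM in aktΔ/Δ cells. The rule left out some cells with *smyhc1*: 12 WT and 8 aktΔ/Δ cells within the endothelial limit held at least 2 UMIs of *smyhc1* and were not counted as muscle, with median totals of 2026.5 and 837 UMIs.

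The genotypes were then compared by levels summed over the muscle cells of each library, as the log2 ratio of aktΔ/Δ to WT. A ratio of at least 2-fold was found higher in aktΔ/Δ cells for 314 of the 4823 genes (6.51%) and lower for 422 (8.75%), and the median log2 ratio over all of them was 0.08. By the interval of the log2 ratio the order was the reverse, with 591 genes (12.3%) above 0 and 373 (7.73%) below it. The aktΔ/Δ muscle cells held 493557 UMIs against 1770243 in WT, so a lower call could rest on few aktΔ/Δ UMIs. The 2-fold counts thus do not show that more genes were lower than higher. With the cell that held most UMIs of a gene left out of each library, 209 of the 314 and 346 of the 422 still passed 2-fold. Leaving out 1 cell removes a larger part of 42 aktΔ/Δ cells than of 148 WT cells, and the median log2 ratio over all genes fell to -0.07. Here and below, that check is therefore harder on higher than on lower calls. The genes of the rule lay near equality, as levels of genes that chose the cells. *actc1b* was at 30389 CPM (30133 to 30647, 53796 UMIs) in WT and 30082 CPM (29599.7 to 30569, 14847 UMIs) in aktΔ/Δ cells, a log2 ratio of -0.01. *mylpfa* was at 15293 and 12951 CPM (-0.24) and *tnnc2* at 2679 and 2670.4 CPM. *myog* was at 358 CPM (331 to 387, 634 UMIs) in WT and 525 CPM (463 to 593, 259 UMIs) in aktΔ/Δ cells, a log2 ratio of 0.55 (0.34 to 0.76), or 0.31 without the top cell of each library, and *myod1* at 160.4 and 197 CPM, a ratio of 0.29 (-0.05 to 0.63).

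Summed over all muscle cells, slow fibre genes were higher and fast fibre genes lower in the aktΔ/Δ library. The slow list summed to 20097 CPM in WT and 28572 CPM in aktΔ/Δ cells, a log2 ratio of 0.51 (0.48 to 0.54), and the fast list to 65696 and 53848 CPM, a ratio of -0.29 (-0.31 to -0.27). Of 14 slow genes measured, 5 were at least 2-fold higher and 1 lower, beside 6.51% and 8.75% of all genes. The higher ones were *myl10*, *tnnc1b*, *smyhc2*, *tnni1d* and *prox1a*. *myl10* was at 7181 CPM (7057 to 7307, 12713 UMIs) in WT and 14408 CPM (14075 to 14746, 7111 UMIs) in aktΔ/Δ cells, just past 2-fold. The slow member that was lower, *acta1b*, is an actin gene that was higher in the cells without *smyhc1*, at 6135 against 2519 CPM in WT, and was at 5575 and 2745 CPM over all cells (log2 ratio -1.02, -1.10 to -0.94). Of 24 fast genes, 1 was at least 2-fold higher and 3 lower, and 15 had an interval below 0 and 4 above it, beside 7.73% and 12.3% of all genes. The fast gene that was higher was *pvalb4*, at 365 and 875 CPM (1.26), which lay in the *smyhc1* cells, and the lower ones were *mylpfb* (911 and 448 CPM), *pvalb3* (55.9 and 12.2 CPM) and *myhc4* (14.7 and 6.08 CPM).

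The size and sign of this difference changed with the cells counted and their weight. The *smyhc1* cells were 14.9% and 14.3% of the muscle cells but held 15.5% of the UMIs in WT and 25.2% in aktΔ/Δ, where 1 cell held 33.0% of all *smyhc1* and 30.1% of all *myl10* UMIs. Without the top cell of each gene, none of the slow genes was 2-fold higher, but that check also moved the median log2 ratio over all genes from 0.08 to -0.07. Without the *smyhc1* cells, the log2 ratio of the slow list was -0.40 and that of the fast list -0.24. The slow list member with the highest level in the remaining cells was *acta1b*, at 6135 CPM in WT and 3002 CPM in aktΔ/Δ. Of the 8 slow genes measured there, 3 had an interval above 0 and 2, *acta1b* among them, below it. The log2 ratio of *acta1b* there was -1.03, while the slow list member *actc1a* was at 1840 and 1830 CPM. The median log2 ratio of the 8 genes was 0.54, opposite in sign to the summed list. The list was not summed without *acta1b*. After thinning each cell to 2000 UMIs there were 97 WT and 23 aktΔ/Δ muscle cells, of which 7 and 1 were *smyhc1* cells, and the ratios were -0.87 and 0.49, and with the mean of each cell's CPM they were 0.09 and 0.20. Without the top cell of each list they were 0.26 and -0.43.

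In *smyhc1* cells, *smyhc1* itself was at 8097 and 8199 CPM in WT and aktΔ/Δ, *myl13* at 53019 and 53736 CPM, *tpm2* at 10922 and 11735 CPM and *tnnc1b* at 6281 and 7965 CPM. Of the 14 slow genes measured there, 5 had an interval above 0 and 2 below it, with a median log2 ratio of 0.17. In the remaining cells 3 of 8 slow genes had an interval above 0 and 2 below it, with a median of 0.54. The ratio was larger there for *myl13* at 40.8 and 1216 CPM (log2 ratio 4.90), *myl10* at 73.5 and 1004 CPM (3.77), *tpm2* at 27.4 and 230.1 CPM (3.07) and *tnnc1b* at 24.7 and 81.2 CPM (1.72). These levels can rest on few cells. At least 2 UMIs of *myl10* were held by only 10 of the 42 aktΔ/Δ muscle cells, and 6 of the 42 were *smyhc1* cells. Of the remaining aktΔ/Δ cells, 4 had more slow than fast UMIs. In the remaining cells *mylpfa* was at 17937 and 17082 CPM and *atp2a1* at 6524 and 7964 CPM, while most other fast genes were lower in aktΔ/Δ cells. Of 23 fast genes there, 15 had an interval below 0 and 2 above it, with a median log2 ratio of -0.43. The share of all genes with such intervals was not computed within the *smyhc1* cells or the remaining cells. Over all muscle cells it was 7.73% below 0 and 12.3% above it. *tnni2a.4* was at 2854 and 1752 CPM, *myhz1.3* at 3437 and 2201 CPM and *pvalb2* at 3739 and 2772 CPM. *myhz1.1* went the other way, at 1175 and 1735 CPM, but 1 aktΔ/Δ cell held 56.6% of its UMIs, and over all cells its ratio was 0.39 with that cell and -0.66 without the top cell of each library.

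**Figure D4:**
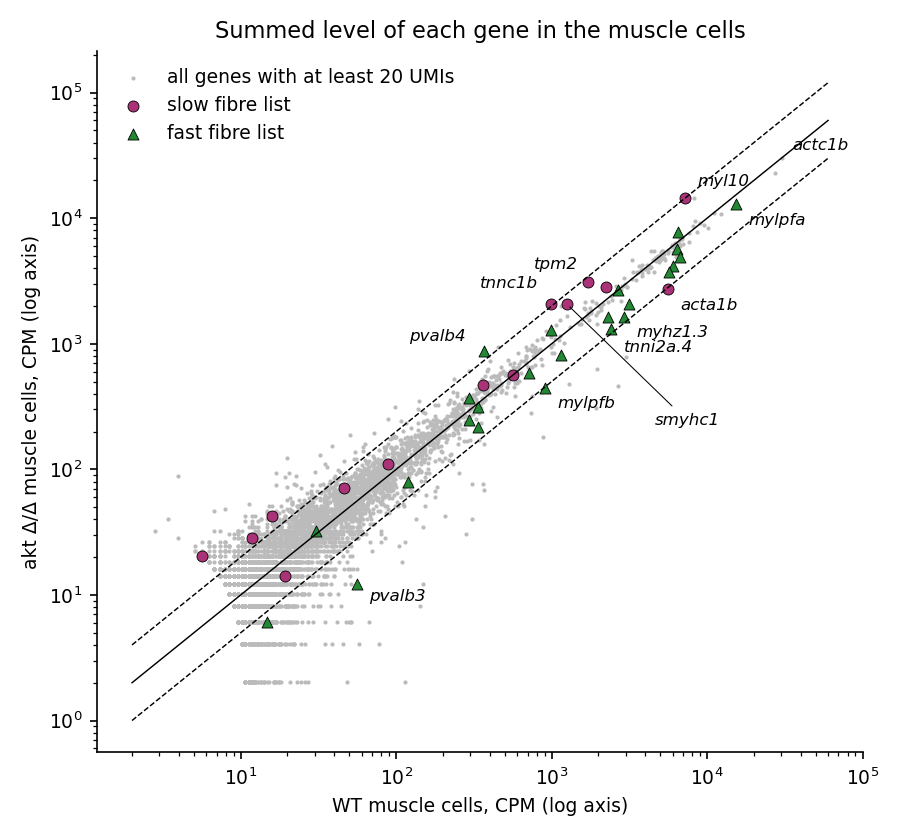
Summed level of each gene with at least 20 UMIs in WT (x axis) and aktΔ/Δ muscle cells (y axis), in CPM on log axes, with the line of equality (solid) and 2-fold (dashed); genes at 0 in a library are not drawn. Genes of the slow list (circles) lie mostly above equality and genes of the fast list (triangles) mostly below it. The fast genes *pvalb4*, *atp2a1*, *myhz1.1* and *actn3a* had an interval above 0, and the slow gene *acta1b* was 2-fold lower.

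The counts for sarcomere genes are read beside the 6.51% of all genes 2-fold higher and 8.75% lower. Of 21 measured thin filament genes 1 was higher, *tpm1* at 61.6 CPM (50.6 to 74.3, 109 UMIs) in WT and 139.8 CPM (109 to 177, 69 UMIs) in aktΔ/Δ cells, and 1 lower, *acta1b*. After thinning, the log2 ratio of *tpm1* was -0.92. Of 18 genes of the thick filament, titin and M-band none was higher and *mylpfb* was lower, and the titin genes *ttn.1* (2301 and 2164 CPM) and *ttn.2* (2079 and 1947 CPM) were nearly equal. Of 17 alternatives, *acta1b* passed 2-fold in 11 and *mylpfb* in 9, with weakest log2 ratios of -0.46 and -0.10. Of 26 genes of the Z-disc, the plate that anchors the thin filaments, 3 were higher and 5 lower. Without the top cells 1 of the 3 and 4 of the 5 passed. *smtnl1*, a smoothelin-like gene, was at 235 CPM (213 to 259, 416 UMIs) in WT and 525 CPM (463 to 593, 259 UMIs) in aktΔ/Δ cells, a log2 ratio of 1.16 (0.93 to 1.39), in 95 of 148 WT and 31 of 42 aktΔ/Δ cells. It passed 2-fold in 16 of 17 alternatives and stood at 1.17 without its top cells. *tcap*, whose product caps titin, was at 865 CPM (823 to 909.9, 1532 UMIs) in WT and 409 CPM (355 to 469.8, 202 UMIs) in aktΔ/Δ cells (-1.08), *nrap*, an adaptor gene of assembling myofibrils, at 42.4 and 10.1 CPM (log2 ratio -2.06, -3.73 to -0.78) and *myoz2a* at 79.7 and 26.3 CPM (log2 ratio -1.60, -2.54 to -0.78). *nrap* rested on 75 and 5 UMIs and passed 2-fold in 15 of 15 alternatives, and *tcap* in 12 of 17. The intermediate filament gene *desma* was at 1742 and 1546 CPM.

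Of 24 genes of excitation-contraction coupling, none was 2-fold higher and 2 were lower, beside 6.51% and 8.75% of all genes, and 3 had an interval above 0 and 7 below it. The lower ones were *ryr3* at 48.0 and 18.2 CPM (log2 ratio -1.40, -2.57 to -0.40) and *cacng6b* at 14.1 and 6.08 CPM from 25 and 3 UMIs. *atp2a1* was at 6515 and 7833 CPM and *srl*, the gene of a calcium-binding protein of the reticulum, at 886 and 1088 CPM. None of the 9 synapse genes passed 2-fold in either direction, with *chrnd* at 129.9 and 111 CPM and *musk* at 67.2 and 62.8 CPM. None of the 8 fusion genes did either: *mymk* was at 41.2 and 60.8 CPM and *jam2a* at 174 and 203 CPM. Of 13 myosin chaperone genes only *hsp90aa1.2*, a heat shock gene, passed, at 46.9 and 12.2 CPM. *unc45b* was at 236 and 219 CPM. Of 18 energy genes, *pygma*, the muscle glycogen phosphorylase gene, was higher at 139 and 302 CPM (log2 ratio 1.12, 0.82 to 1.42) and *slc25a4* lower at 24.3 and 4.05 CPM from 43 and 2 UMIs. Without the top cells *pygma* did not pass 2-fold and *slc25a4* did.

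The 4 Akt genes were barely detected in muscle cells. *akt1* had 0 UMIs in both libraries, *akt2* 12 in WT and 6 in aktΔ/Δ cells, *akt3a* 1 and 0, and *akt3b* 3 and 0, so the mutated genes could not serve to check the labels here, and a 3′ count does not read the mutated sites. Of 18 measured genes of growth and atrophy under Akt and FoxO, none was 2-fold higher and 3 were lower, beside 6.51% and 8.75% of all genes. They were *irs2b*, an insulin receptor substrate gene (42.9 and 18.2 CPM, log2 ratio -1.24, -2.42 to -0.24), *trim63b*, a copy of the atrophy ligase gene, and the transcription factor gene *klf15* (13.0 and 6.08 CPM, from 23 and 3 UMIs). *trim63b* was at 111 CPM (96.3 to 128, 197 UMIs) in WT and 52.7 CPM (34.4 to 77.2, 26 UMIs) in aktΔ/Δ cells, a log2 ratio of -1.08 (-1.73 to -0.48). The other copy of that ligase gene, *trim63a*, was at 182 and 158 CPM. The translation repressor gene *eif4ebp1* was at 604 and 656 CPM and *rps6* at 6038 and 5424 CPM. The median log2 ratio of the list was -0.05, beside 0.08 over all genes.

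Regulators and cell cycle genes gave a few larger ratios, and their counts are read beside the 6.51% of all genes 2-fold higher and 8.75% lower. The cell cycle inhibitor gene *cdkn1ca* was at 71.7 CPM (59.8 to 85.4, 127 UMIs) in WT and 197 CPM (159 to 239.8, 97 UMIs) in aktΔ/Δ cells, a log2 ratio of 1.45 (1.06 to 1.85), in 54 WT and 20 aktΔ/Δ cells. The ratio was 1.33 without its top cells and passed 2-fold in 15 of 17 alternatives, with 0.17 after thinning as the lowest. The levels in *smyhc1* cells were 80.2 and 185 CPM, and those in the remaining cells 70.19 and 200.3 CPM. Of the other 18 cell cycle genes measured, 4 were 2-fold lower in aktΔ/Δ cells, *cdk1* (23.2 and 6.08 CPM), *plk1* (18.6 and 6.08 CPM), *ccnb1* (15.8 and 6.08 CPM) and *mki67* (11.3 and 2.03 CPM), all with at most 3 UMIs in aktΔ/Δ cells. Over all 19 measured cell cycle genes, 1 had an interval below 0 and 1 above it. The somite gene *meox1* was at 19.8 and 72.9 CPM (log2 ratio 1.88, 1.17 to 2.60), found in 8 WT and 6 aktΔ/Δ cells and mostly in the lower tercile, where it stood at 50.2 and 259 CPM. Its log2 ratio was -0.30 in cells with at least 4 of the 5 markers. *lbx2* had 21 and 1 UMIs. Among the Mef2 family and its cofactors, *mef2ca* was at 255 and 176 CPM and *mef2d* at 214 and 219 CPM, and of 16 genes 1 was higher (*id3*, 26.0 and 54.7 CPM) and 1 lower (*six4b*, 23.2 and 10.1 CPM). Without the top cells *id3* did not pass 2-fold and *six4b* did.

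Somites also make cues that guide blood vessels, and most of these genes were near the limit of detection. For these and the lists that follow, 6.51% of all genes were 2-fold higher and 8.75% lower. Of the cue genes only a few could be measured. Of 5 measured ones, 3 were higher in aktΔ/Δ cells: the chemokine genes *cxcl12a* (38 UMIs in 18 WT cells and 26 UMIs in 11 aktΔ/Δ cells, 21.5 and 52.7 CPM) and *cxcl12b* (12 UMIs in 11 cells and 23 UMIs in 9 cells, 6.78 and 46.6 CPM) and the ephrin gene *efna1b* (24.3 and 48.6 CPM). *efna1b* lay just past 2-fold, from 43 and 24 UMIs. Without the top cells 2 of the 3 passed. The log2 ratio of *cxcl12b* was 2.78 (1.71 to 3.92), and 0.30 when cells over the endothelial limit were added. The repellent gene *sema3aa* was lower, at 15.8 and 6.08 CPM, from 28 and 3 UMIs. *vegfaa*, which encodes the main vascular growth factor, had 11 UMIs in 9 WT cells (6.21 CPM) and 0 in aktΔ/Δ cells, which allows up to 6.08 CPM, so no difference could be detected. Of 15 measured genes of the basement membrane and dystrophin complex, 2 were higher, *thbs4b* (13.6 and 40.5 CPM) and *fn1b* (6.21 and 18.2 CPM), and none lower. The dystrophin gene *dmd* was at 33.3 and 32.4 CPM. Hedgehog targets (3 measured) held no gene past 2-fold and Notch genes (5 measured) 1, *notch1a*, at 24.9 and 12.2 CPM from 44 and 6 UMIs.

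By ratio alone, the 10 genes furthest down in aktΔ/Δ muscle cells among the 1606 with at least 100 UMIs were mostly genes of other cell types. They included the neutrophil lysozyme gene *lyz* (280.2 and 30.4 CPM), the keratin genes *krt4* (306 and 40.5 CPM), *cyt1* (149.7 and 12.2 CPM) and *cyt1l*, the epithelial adhesion gene *epcam* and the haemoglobin gene *hbbe1.3* (1926 and 306 CPM). For *s100a11*, 1 WT cell held 99.0% of its 201 UMIs, and for *lyz*, *krt4* and *cyt1* 1 WT cell held 61.5%, 64.5% and 52.1%. *lyz* and *krt4* were also lower in aktΔ/Δ endothelial cells, at 483 and 62.7 CPM and at 189 and 51.9 CPM. *s100a11* went the other way in all other cells, at 5.98 and 24.1 CPM. A gene among them that was low in all other cells was *si:ch73-187m15.4*, at 143 CPM (126 to 162, 253 UMIs) in WT and 8.10 CPM (2.21 to 20.8, 4 UMIs) in aktΔ/Δ cells against 0.488 and 0.0438 CPM in all other cells, seen in 18 WT and 4 aktΔ/Δ cells. The 10 genes furthest up included *mdh1aa*, a malate dehydrogenase gene (32.2 and 129.7 CPM), *mgst3a*, a microsomal glutathione transferase gene (38.4 and 154 CPM), *dhrs7ca*, a dehydrogenase gene (50.3 and 186 CPM), and *mybpc3*, a myosin binding protein gene (62.7 and 160.1 CPM). They also held genes whose level was lower in muscle cells than in all other cells. *ctsla*, a cathepsin gene, was at 97.7 and 312 CPM, against 901 and 1313 CPM in all other cells, with 57.8% of its aktΔ/Δ UMIs in 1 cell and a log2 ratio of 0.56 without the top cells. *cpn1* was at 35.0 and 109 CPM against 169 and 253 CPM, and *mafbb* at 29.9 and 95.2 CPM against 105 and 121 CPM. *dhrs7ca* was low outside muscle, at 0.339 and 0.373 CPM in all other cells, and was seen in 47 WT and 20 aktΔ/Δ cells. *LOC110439535* was also up, but 1 aktΔ/Δ cell held 71.2% of its UMIs and the ratio was 0.03 without the top cells.

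RNA of other cell types differed between the muscle cells of the libraries as a whole. The counts of such genes are read beside the 8.75% of all genes 2-fold lower and 6.51% higher. Of 13 measured erythroid genes, 12 were at least 2-fold lower in aktΔ/Δ muscle cells and none higher, and the list summed to 9642 CPM in WT and 2443 CPM in aktΔ/Δ, against 67302 and 43726 CPM in all other cells. In WT, 1 cell held 43.7% of these UMIs, and without it the sum was 5531 CPM. Erythroid genes took at least 5% of UMIs in 7 WT and 0 aktΔ/Δ muscle cells. The difference was not particular to muscle cells. In endothelial cells the erythroid list summed to 15618 CPM in WT and 5021 CPM in aktΔ/Δ, and the myeloid list to 673 and 124 CPM. The epidermal list was not lower there, at 3161 and 3351 CPM. Epidermal genes were 2-fold lower in 7 of 8 (964 and 310.0 CPM summed) and myeloid genes in 3 of 3 (347 and 38.5 CPM). Without the top cells 4 of the 7 and 1 of the 3 passed. In WT, 1 cell held 40.2% of the epidermal and 1 cell 59.2% of the myeloid UMIs. Without the top cell of each library the sums were 584 and 269 CPM for epidermal and 144 and 34.1 CPM for myeloid genes. Endothelial genes went the other way, with 7 of 23 at least 2-fold higher and none lower, at 479 and 759.8 CPM summed, against 5973 and 7442 CPM in all other cells. *dab2* was at 22.03 and 77.0 CPM and *sox18* at 18.6 and 46.6 CPM. Without the top cells 2 of the 7 passed.

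Stress genes that respond to dissociation were lower in aktΔ/Δ muscle cells, at 2212 CPM in WT and 1556 CPM in aktΔ/Δ summed. Of 19 measured, 8 were at least 2-fold lower and none higher, beside 8.75% and 6.51% of all genes. *fosab* was at 365 CPM (338 to 395, 647 UMIs) in WT and 158 CPM (125 to 197, 78 UMIs) in aktΔ/Δ cells (-1.21), *atf3* at 177 and 66.9 CPM and *hsp70l* at 38.4 and 4.05 CPM, the last from 68 and 2 UMIs. The unfolded-protein chaperone gene *hspa5* was at 96.6 and 184 CPM in the other order. In all other cells the list summed to 3124 and 2738 CPM. Of 7 measured genes of fibroblasts and sclerotome, 1 was 2-fold lower and none higher, beside the same shares of all genes. Their median log2 ratio was -0.18, with sums of 895 and 689 CPM. The lower one was the collagen gene *col1a2*, at 184 and 72.9 CPM. Of 4 notochord and cartilage genes, 1 was higher and 2 lower, again beside these shares. The matricellular gene *ctgfa* was at 367 and 68.9 CPM and the notochord gene *ntd5* at 19.8 and 124 CPM, the latter from 35 and 61 UMIs. The part of stress, depth and RNA of other cells in the ratios of the muscle genes was not tested.

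**Figure D5:**
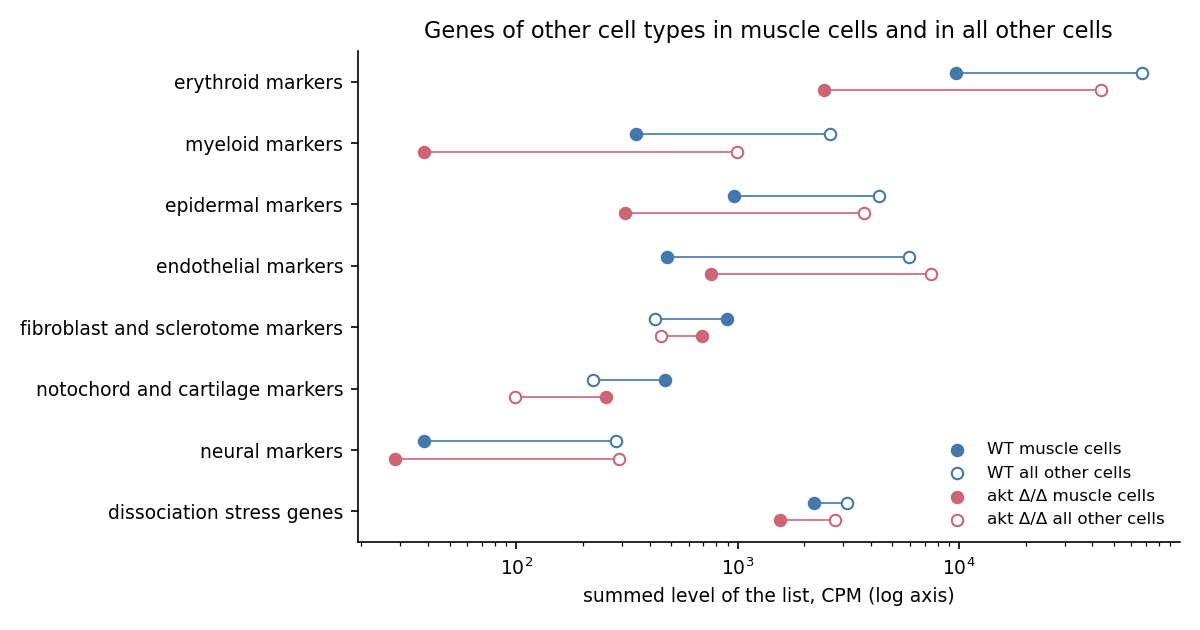
Summed level in CPM (log axis) of gene lists of other cell types and of dissociation stress genes in muscle cells (filled) and in all other cells (open) of each library, joined by a line. Erythroid genes stood at 9642 CPM in WT and 2443 CPM in aktΔ/Δ muscle cells, and endothelial genes at 479 and 759.8 CPM.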

How the data were processed

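Per the labels and the study's methods, *kdrl*:mCherry+ cells of 24 hpf embryos were run as 1 10x Genomics 3′ library per genotype. The authors deposited Cell Ranger 5.0.0 matrices of raw UMI counts, not normalized and already restricted to cell-containing droplets. Seurat is also named in the submitters' processing notes. For the genome build and the annotation, the sources used here give no name; genes are named by the files' symbols, of which 216 stand on more than 1 of 36351 rows.

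Here, UMI counts were summed over the muscle cells of each library and divided by their total, as CPM, with exact Poisson intervals. Log2 ratios have exact binomial intervals and shares Clopper-Pearson intervals, all at 95%. PCR copies are collapsed by UMIs, so intervals cover the counting of molecules only and no variation between embryos. Genes with at least 20 UMIs over both libraries (4823) were compared, and a ratio of at least 2-fold was used as the call in place of a test. A library at 0 was bounded with 3 counts. Endothelial cells held at least 2 UMIs of each of *kdrl* and *cdh5*, erythroid cells at least 2 of each of *gata1a* and *alas2*, and fibroblast-like cells at least 2 of each of at least 3 of *col1a1a*, *col1a2*, *col5a1*, *pdgfra* and *twist1b*; none was a muscle cell. No doublets were removed in the reported values, and removal of the highest Scrublet scores was an alternative.

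Genes named are those of the rule, of the fixed gene lists, the 10 furthest up and the 10 furthest down by ratio where the muscle cells held at least 100 UMIs, and the 20 with the highest level relative to all other cells among genes with at least 100 CPM in both libraries. The rule for the cells and the lists were chosen with earlier results of these data known. The 19 alternatives changed the rule, the depth, the normalization, the minimum count or the cells included. Scripts were tested on simulated data and used Python 3.11.15, numpy 2.4.6, scipy 1.17.1, pandas 2.3.3, scanpy 1.11.5, R 4.3.3 and edgeR 4.0.16 (TMM factors only).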

Additional observations from a re-analysis of the deposited data

How the results depend on the processing

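The depth of the muscle cells limits these results: 42 aktΔ/Δ cells with 493557 UMIs cannot resolve genes below about 6.08 CPM, and cells with many UMIs weigh most in the sums. Of 96 summary values recomputed, 47 stayed within their counting interval or within 1.5 times the reported count, 44 moved and 5 changed direction. Leaving out replicates was not possible with 1 library per genotype. No paired analysis was possible because each genotype has 1 library and no test was run. 6 of the 19 alternatives were chosen after seeing the data. The cause was not tested for any of these changes.

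The slow and fast lists had reported log2 ratios of 0.51 and -0.29. With 1 UMI of each marker they were 0.85 and 0.042, with 3 UMIs 0.46 and -0.37, and with 4 markers 0.77 and -0.45. With no *kdrl* or *cdh5* UMI they were 0.12 and -0.17, and with no limit on these genes 0.63 and -0.094. Removing the highest Scrublet scores gave 0.47 and -0.32, TMM factors 0.40 and -0.39, thinning -0.87 and 0.49, and the mean of each cell's CPM 0.091 and 0.20. Without *smyhc1* cells they were -0.40 and -0.24, without each list's top cell 0.26 and -0.43, with at least 1% sarcomere UMIs 0.55 and -0.24, and with under 5% erythroid UMIs 0.47 and -0.32. The value of -0.40 includes *acta1b*, at 6135 and 3002 CPM in those cells, and the median log2 ratio of the slow genes measured there was 0.54. The slow ratio without the deepest cells was 0.58, and the fast ratio in cells with at least 500 genes was -0.34.

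Muscle cells were 1.72% of WT and 0.740% of aktΔ/Δ cells with 1 UMI of each marker, 0.439% and 0.180% with 4 markers, 0.671% and 0.296% with no *kdrl* or *cdh5* UMI and 0.749% and 0.316% after thinning. The WT share was 0.713% with 3 UMIs and 1.11% with no endothelial limit.

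Genes at least 2-fold higher and lower, reported as 314 and 422, were 58 and 114 after thinning, 580 and 747 with the mean of each cell's CPM, 103 and 133 with at least 50 UMIs and 1885 and 914 with at least 1 UMI per gene. The lower genes were 894 with 1 UMI of each marker, 1008 with no endothelial limit and 662 without each gene's top cell. Single genes also turned: *meox1* to -0.30 with 4 markers, *pvalb4* to -0.96 with no *kdrl* or *cdh5* UMI and -1.98 without *smyhc1* cells, and *myl10*, *tnnc1b* and *tpm1* to -1.87, -3.20 and -0.92 after thinning.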

Other observations

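Muscle transcripts were also carried by the cells chosen with fibroblast genes and called fibroblast-like here. In these cells epidermal genes summed to 36543 CPM in WT and 28623 CPM in aktΔ/Δ. Fibroblast and sclerotome genes summed to 5073 and 4434 CPM. The name fibroblast-like thus stands for the choosing genes only. Among 147 WT and 45 aktΔ/Δ fibroblast-like cells, with medians of 11087 and 16596 UMIs, *actc1b* had at least 1 UMI in 44.9% and 35.6%, at summed levels of 1770 and 2266 CPM, against 254 and 23.0 CPM in endothelial cells. *mylpfa* was at 1099 and 1767 CPM and *myog* at 12.9 and 6.79 CPM in the same cells. These levels came from few cells: *mylpfa* was found in 34 WT and 4 aktΔ/Δ cells, and *myog* in 4 and 1.

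The 34 WT and 2 aktΔ/Δ cells that met the muscle part of the rule and exceeded the limit on *kdrl* and *cdh5* had median totals of 16965.5 and 36984 UMIs, above the medians of 10720 and 7938.5 UMIs in the muscle cells. They held a median of 7 and 4.5 UMIs of *kdrl* and *cdh5* together. Of the 2152 WT and 717 aktΔ/Δ cells with the highest Scrublet scores, 5 and 0 were muscle cells.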
